A study of Mus musculus with 8 samples.

Results

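The genes described here encode myeloid receptors of the TREM family (triggering receptors expressed on myeloid cells) and of the CD300 family, together with the adaptor Tyrobp. They were chosen by name as Trem1, Trem2, Trem3, Treml2, Cd300a, Cd300lb, Cd300ld, Cd300lf and Tyrobp, 9 of the 18193 genes measured, and all 9 are on the array. They are read by 15 of its 45101 probe sets, and each gene is represented by its probe set of highest average. RNA came from blood monocytes of male C57BL/6 mice given green fluorescent latex beads of 1 µm intravenously and sorted 4 days later. Gr1hi cells are the classical monocytes, which have much Ly-6C, and Gr1lo cells the nonclassical ones, which have little. Each subset was sorted by bead fluorescence into bead-positive and bead-negative cells, which gives 4 groups of 2 biological replicates, 8 arrays in all. All the mice received beads, so the groups without beads are the unlabelled cells of injected animals. The descriptions conflict on clodronate liposomes, which deplete phagocytes: the series text places them 3 days before the beads for the whole study, whereas the treatment protocol reserves them for the labelling of Gr1hi cells, so under that reading subset and pretreatment cannot be told apart. Whether the replicates came from separate or pooled mice is not given in the sources used here, and the p-values measure only the spread between these arrays.

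TREM and CD300 receptors carry an extracellular immunoglobulin-like domain and sense lipids, dying cells and microbial or inflammatory ligands. Activating members have short tails and borrow signalling from an adaptor with an immunoreceptor tyrosine-based activation motif (ITAM), which recruits the kinase Syk. Trem1, Trem2, Trem3 and Cd300lb pair with Tyrobp (also called DAP12), and Cd300ld pairs with Fcer1g, the Fc receptor gamma chain. Cd300a and Cd300lf carry inhibitory motifs (ITIMs) in their own tails and recruit the phosphatases Ptpn6 and Ptpn11. Trem2 is best known from lipid-laden macrophages, including those of atherosclerotic plaques, and Trem1 as an amplifier of inflammatory responses in neutrophils and monocytes. Treml2 (TLT-2) is found on B cells and myeloid cells, and it is grouped here neither as activating nor as inhibitory.

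The promoters of 4 receptor genes are shown because they stand for the patterns described next: Trem1 and Cd300ld were higher in Gr1lo cells, Trem2 was higher in Gr1hi cells, and Cd300lb was close to level. Each is the 250 bases before the gene's start in RefSeq (build GRCm38.p6), 5′ to 3′ on the gene's strand, with capitals for GAGGAA or its reverse complement TTCCTC, the core bound by the myeloid transcription factor PU.1.
Trem1, chr17:48232489-48232738, plus strand: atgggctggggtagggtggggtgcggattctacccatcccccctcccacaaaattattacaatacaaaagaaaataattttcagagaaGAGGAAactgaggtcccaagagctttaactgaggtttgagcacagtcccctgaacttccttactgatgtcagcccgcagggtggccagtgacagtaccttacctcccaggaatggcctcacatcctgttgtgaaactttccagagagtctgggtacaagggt
Cd300ld, chr11:114989887-114990136, minus strand: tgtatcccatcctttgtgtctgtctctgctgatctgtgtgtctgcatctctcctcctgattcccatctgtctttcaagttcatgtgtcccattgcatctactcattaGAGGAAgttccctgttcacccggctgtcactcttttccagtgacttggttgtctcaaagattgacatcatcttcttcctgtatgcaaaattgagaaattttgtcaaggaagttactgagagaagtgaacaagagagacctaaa
Trem2, chr17:48346151-48346400, plus strand: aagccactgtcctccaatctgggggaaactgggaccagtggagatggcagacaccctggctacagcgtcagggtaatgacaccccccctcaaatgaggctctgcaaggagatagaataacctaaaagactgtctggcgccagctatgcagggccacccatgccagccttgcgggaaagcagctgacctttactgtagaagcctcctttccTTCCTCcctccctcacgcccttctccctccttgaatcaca
Cd300lb, chr11:114934372-114934621, minus strand: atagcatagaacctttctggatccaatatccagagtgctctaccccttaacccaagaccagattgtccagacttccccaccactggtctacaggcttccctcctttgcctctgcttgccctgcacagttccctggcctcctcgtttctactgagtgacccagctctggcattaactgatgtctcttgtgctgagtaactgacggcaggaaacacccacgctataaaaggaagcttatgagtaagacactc
The PU.1 core starts 162 bases before the start in Trem1, 143 in Cd300ld and 40 in Trem2, and these letters are not in the Cd300lb window. The promoter table held 6 of the 9 genes, and 5 of those 6 had the core, against 23.3% of all 32851 windows of the same length. On either strand, AAAGGTCA, the monomer site of Nr4a1, was in 1 of the 6 (Trem2) and in 1.34% of all windows. The C/EBP pattern TTGCNNAA was in 1 of the 6 (Cd300a) and in 9.56% of all windows, and the RUNX core TGTGGT in 0 of the 6 and in 14.0%. None of the 4 patterns contains another. These matches are descriptions of letters, not of bound sites. In the RefSeq order of coding genes Trem1 is followed on chromosome 17 by Trem3 and Treml4, and Trem2 lies beside Treml1. Cd300a and Cd300lb are next to each other on chromosome 11, and Tyrobp lies beside the adaptor gene Hcst on chromosome 7.

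Values are log2 expression after the authors' normalisation, and a level of 6.98 was taken as background, from genes for olfactory, vomeronasal and taste receptors and keratin-associated proteins. Array medians lay between 6.12 and 6.19. The labels held at the level of markers: 7 of 7 nonclassical monocyte markers were called higher and 4 of 4 measured classical markers lower in Gr1lo than in Gr1hi cells, with and without beads. The 4 general monocyte markers (Csf1r, Cd68, Adgre1 and Itgam) were above background on all arrays. A quality measure moved with bead state and with subset. The 24 probe sets for poly-A control RNAs, added during labelling, averaged 7.75 and 8.11 on the bead-free Gr1hi arrays and 9.45 and 9.86 on those with beads. In Gr1lo cells they averaged 8.68 to 9.27 without and 10.44 to 10.45 with beads, higher than in Gr1hi cells in both bead states. The pair of Gr1lo arrays without beads also stood apart from each other for tissue macrophage markers. The mean of the 8 measured was 9.22 on array 1 and 6.70 on array 2. Among them the complement gene C1qb was at 12.06 on array 1 and 9.37 on array 2, and Cd5l at 10.99 and 6.19. Vcam1, below background, was at 6.14 and 6.31. The platelet gene Pf4 was at 11.36 and 7.70. This group enters the bead-free subset comparison and the bead comparison in Gr1lo cells. With 2 arrays a group the precision of every value is limited.

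Do the monocyte subsets differ in these receptors when neither carries beads? In bead-free cells activating and inhibitory receptors were each found in both directions, with only 2 inhibitory genes among the members. Cd300ld, Trem1, Trem3 and Cd300a were higher in Gr1lo cells, and Trem2, Cd300lf and Treml2 were higher in Gr1hi cells. A gene was called at a Benjamini-Hochberg adjusted p under 0.05 over all genes in limma, and 7 of the 9 genes were called, 4 higher and 3 lower in Gr1lo, against 23.6% of all genes tested. With a 10.0% background of genes called higher and 13.6% called lower, the subsets differed in either direction over much of the array. All 9 genes had arrays that did not overlap between the subsets, as did 62.0% of all genes. The median difference of the 9 genes was 0.18, against -0.07 for all genes tested. In sorted bulk samples, fewer cells expressing a gene and less RNA per cell cannot be told apart.

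**Figure D1:**
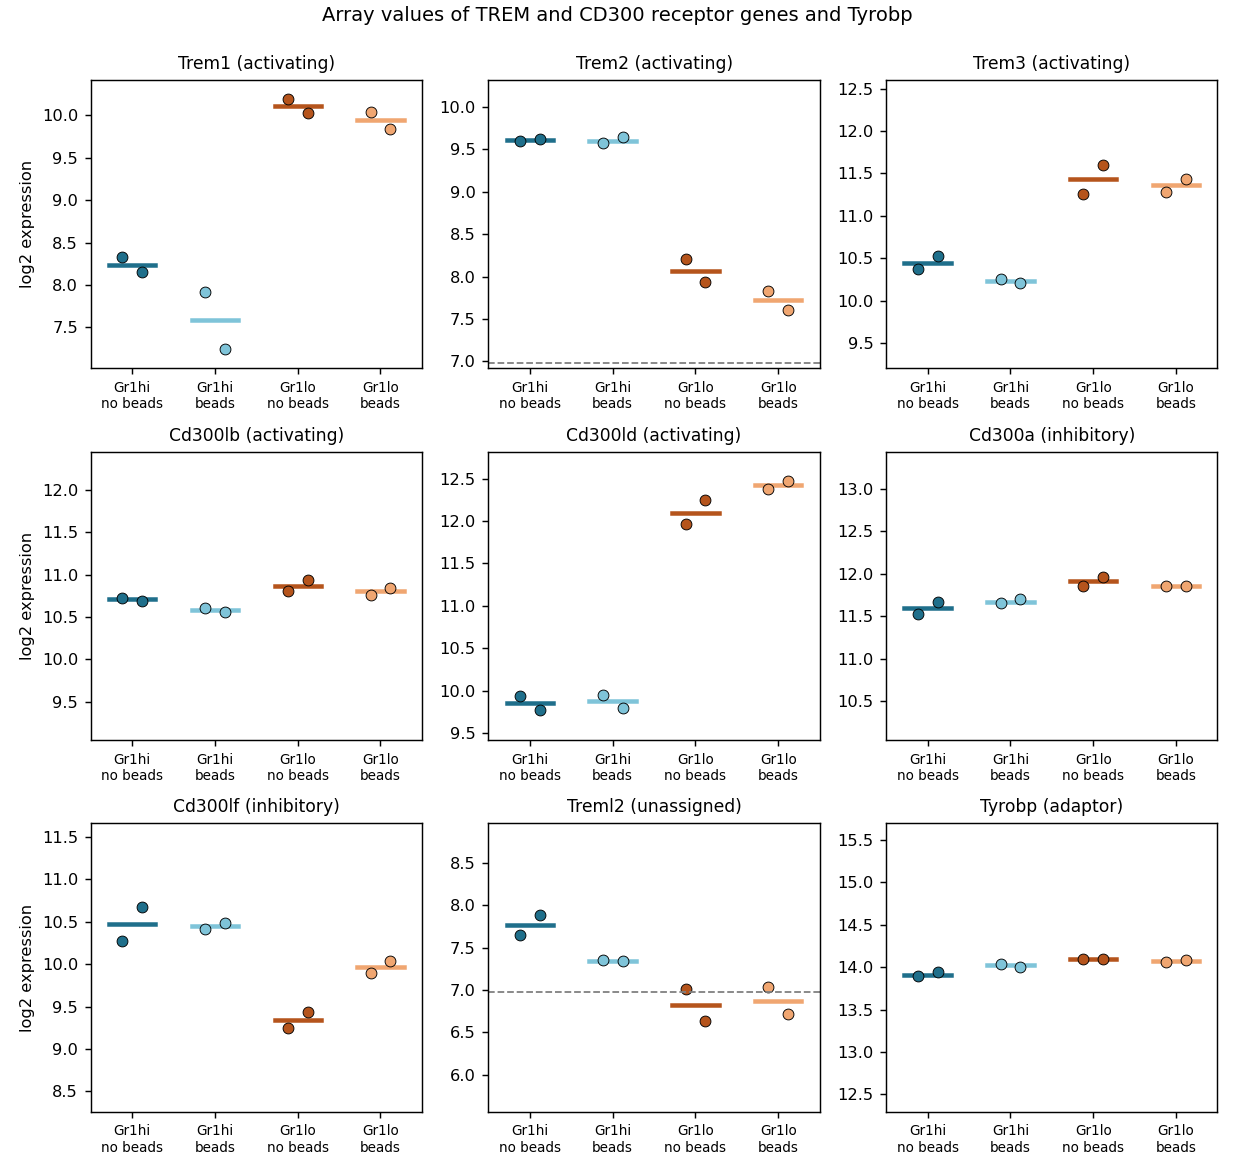
Array values (log2 expression, points) and group means (bars) of the 9 genes in the 4 groups of 2 arrays; every panel spans the same number of log2 units around its own values, and the dashed line marks the background level where it falls in the panel. Cd300ld, Trem1 and Trem3 sit higher on the Gr1lo arrays, Trem2 sits higher on the Gr1hi arrays, and Tyrobp is near 14 in every group.

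The adaptor Tyrobp was among the brightest genes of the array, with a mean over the arrays above that of 99.9% of genes. It read 13.89 and 13.94 in bead-free Gr1hi cells, 14.04 and 14.00 in those with beads, 14.10 and 14.10 in Gr1lo cells without beads, and 14.06 and 14.08 with beads. The groups lay within 0.18 log2 units of each other. The Gr1lo to Gr1hi difference without beads was 0.18 ± 0.08 (SE; 95% interval 0.01 to 0.36; limma adjusted p = 0.130), and with beads 0.05 ± 0.08 (-0.13 to 0.23; adjusted p = 0.703), neither of them called. Over 15 alternative settings the first of these was called in 4.

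Trem1 was at 8.33 and 8.15 in Gr1hi cells without beads and at 10.19 and 10.03 in Gr1lo cells without beads. With beads it was at 7.92 and 7.25 in Gr1hi and at 10.04 and 9.84 in Gr1lo cells. All 4 Gr1lo arrays lay above all 4 Gr1hi arrays, and the Gr1lo groups with and without beads overlapped. The Gr1lo level was higher by 1.86 ± 0.19 without beads, 3.64-fold (limma adjusted p = 2.95e-04), and by 2.35 ± 0.19 with beads, 5.11-fold (adjusted p = 6.36e-05). Neutrophils are another cell known for Trem1 and Trem3, and of 9 measured neutrophil markers 7 were called lower in Gr1lo cells without beads (median difference -1.33) and 2 with beads (median -0.46), where the Trem1 difference was 2.35. Their part in the Trem1 and Trem3 values was not tested. The mean level of that list was 8.11 to 8.43 in Gr1hi and 6.91 to 6.92 in Gr1lo cells without beads, where it lay under background, and 7.52 to 7.83 and 6.69 to 6.76 with beads. Of the 9 neutrophil markers, 8 averaged above background in bead-free Gr1hi cells and 6 in bead-positive Gr1hi cells. In Gr1lo cells the counts were 3 for the bead-free group and 2 for the bead-positive group. Only Csf3r was above background on every array, and only the neutrophil receptor Cxcr2 was below it on every array.

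Trem3, a mouse receptor encoded beside Trem1, read 10.37 and 10.53 in Gr1hi and 11.26 and 11.60 in Gr1lo cells without beads. With beads it read 10.25 and 10.21 in Gr1hi and 11.28 and 11.43 in Gr1lo cells. The Gr1lo arrays were again all above the Gr1hi arrays. The difference was 0.98 ± 0.12 without beads (1.97-fold; limma adjusted p = 7.45e-04) and 1.13 ± 0.12 with beads (2.18-fold; adjusted p = 2.66e-04).

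Trem2 went the opposite way from Trem1 and Trem3. It was at 9.60 and 9.62 in Gr1hi cells without beads, at 9.57 and 9.64 in Gr1hi cells with beads, at 8.21 and 7.93 in Gr1lo cells without beads and at 7.83 and 7.60 in Gr1lo cells with beads. The 4 Gr1hi arrays lay between 9.57 and 9.64, and both Gr1lo groups lay below them. In Gr1lo cells Trem2 was lower by 1.54 ± 0.12 without beads, a log2 difference of -1.54 (2.91-fold; limma adjusted p = 5.10e-05). With beads the log2 difference was -1.89 ± 0.12 (3.70-fold; adjusted p = 1.44e-05). Trem2 is also a macrophage gene, and the bead-free Gr1lo arrays differed in C1qb and other macrophage markers. Trem2 was at 8.21 on the array where C1qb was at 12.06 and at 7.93 on the array where C1qb was at 9.37. C1qb was at 11.87 and 11.32 on the Gr1lo arrays with beads, where Trem2 was lowest. The macrophage markers did not move together in Gr1lo cells. Cd163 was at 7.24 and 4.61 without and 3.64 and 3.89 with beads, and Timd4 at 7.13 and 5.04 and at 4.86 and 4.93. Over the 8 measured, the median bead difference in Gr1lo cells was 0.53, and 0 were called. On the Gr1hi arrays C1qb was at 9.82 and 9.90 without beads and at 11.25 and 11.22 with beads. The part of macrophage transcripts in the Trem2 values was not tested.

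Cd300lb, the CD300 receptor that pairs with Tyrobp, stayed within 0.29 log2 units over the group means. It read 10.72 and 10.69 in Gr1hi and 10.80 and 10.94 in Gr1lo cells without beads, and 10.60 and 10.56 in Gr1hi and 10.76 and 10.84 in Gr1lo cells with beads. The arrays of the subsets did not overlap, but neither difference was called. It was 0.16 ± 0.09 without beads (95% interval -0.04 to 0.36; limma adjusted p = 0.225) and 0.22 ± 0.09 with beads (0.02 to 0.41; adjusted p = 0.104), and the second was called in 3 of 15 alternatives.

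Cd300ld, the activating receptor that pairs with Fcer1g, showed the largest subset difference of the 9 genes. It was at 9.94 and 9.77 in Gr1hi and at 11.96 and 12.25 in Gr1lo cells without beads, and at 9.95 and 9.80 in Gr1hi and 12.38 and 12.47 in Gr1lo cells with beads. The Gr1lo arrays were all far above the highest Gr1hi array. The difference was 2.25 ± 0.12 without beads (4.76-fold; limma adjusted p = 8.68e-06) and 2.55 ± 0.12 with beads (5.84-fold; adjusted p = 4.05e-06). The adaptor Fcer1g was also higher in Gr1lo cells, by 0.32 ± 0.08 without beads (adjusted p = 0.0237) and 0.40 ± 0.08 with beads (adjusted p = 0.00696). The related genes Cd300ld2, Cd300ld3, Cd300ld4 and Cd300ld5 were not analysed here, and whether their transcripts bind the Cd300ld probe set was not tested.

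The inhibitory receptors differed from each other. Cd300a, which binds phospholipids exposed on dying cells, was at 11.52 and 11.67 in Gr1hi and 11.85 and 11.96 in Gr1lo cells without beads. With beads it was at 11.65 and 11.70 in Gr1hi and 11.85 and 11.86 in Gr1lo cells. It was higher in Gr1lo cells by 0.31 ± 0.09 without beads (1.24-fold; limma adjusted p = 0.0337), and differed by 0.18 ± 0.09 with beads (adjusted p = 0.182). The first call is close to the threshold. It was lost when any 1 of the 4 Gr1hi arrays, or bead-free Gr1lo array 2, was left out (differences 0.24 to 0.38, adjusted p 0.0528 to 0.191) and with the compared arrays fitted alone (adjusted p = 0.0820), and held in the other 9 of 15 alternatives.

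Cd300lf, the inhibitory receptor also known as CLM-1, was lower in Gr1lo cells. It read 10.27 and 10.67 in Gr1hi and 9.25 and 9.43 in Gr1lo cells without beads, and 10.41 and 10.49 in Gr1hi and 9.89 and 10.04 in Gr1lo cells with beads. The groups did not overlap between subsets. The log2 difference was -1.13 ± 0.14 without beads (2.19-fold; limma adjusted p = 6.66e-04) and -0.48 ± 0.14 with beads (1.40-fold; adjusted p = 0.0323). The call with beads was lost when any 1 of the 4 arrays it compares was left out (-0.56 to -0.41; adjusted p 0.0640 to 0.157), after centring on the median (-0.42; adjusted p = 0.0504) and after cyclic loess (-0.43; adjusted p = 0.0683).

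Treml2 was close to background. It read 7.65 and 7.89 in Gr1hi and 7.01 and 6.64 in Gr1lo cells without beads, and 7.35 and 7.34 in Gr1hi and 7.03 and 6.72 in Gr1lo cells with beads. Its means were above background in Gr1hi cells alone. The log2 difference was -0.95 ± 0.15 without beads (limma adjusted p = 0.00254) and -0.47 ± 0.15 with beads (adjusted p = 0.0504). The second was not called but passed in 7 of 15 alternatives, among them without Gr1lo array 1 with beads (-0.62; adjusted p = 0.0423) and without either Gr1lo array without beads (-0.47; adjusted p = 0.0264). Treml2 is also a B cell gene, and 4 of 5 measured B cell markers, namely Ms4a1, Cd79a, Pax5 and Ebf1, were below background on every array. The fifth, Cd79b, averaged 7.09 in Gr1hi cells without beads, 7.10 with beads, 7.55 in Gr1lo cells without beads and 8.32 with beads. It was called higher in Gr1lo cells, by 0.46 without beads (adjusted p = 0.0378) and 1.22 with beads (adjusted p = 2.82e-04), and its part in the Treml2 values was not tested. The mean level of the B cell list was between 6.01 and 6.46 over all arrays. Treml2 is found on myeloid cells too, and neutrophil markers were also lower in Gr1lo cells. Of 9 measured, 7 were called lower without beads (median difference -1.33) and 2 with beads (median -0.46). Their part in the Treml2 values was not tested.

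Do the subsets also differ in these receptors when both carry beads? With beads 5 of the 9 genes were called between the subsets, Cd300ld, Trem1 and Trem3 higher and Trem2 and Cd300lf lower in Gr1lo, against 26.5% of all genes called, 11.8% higher and 14.6% lower. The arrays of the subsets did not overlap in all 9 genes, as in 61.4% of all genes. By signalling type, 3 of 5 activating receptors (Trem1, Trem3 and Cd300ld) were called higher and 1 lower (Trem2) in Gr1lo cells in both bead states, with a median difference of 0.98 without and 1.13 with beads. The inhibitory pair had 1 called higher (Cd300a) and 1 lower (Cd300lf) without beads, and 0 higher and 1 lower (Cd300lf) with beads. Over these 2 genes the median difference was -0.41 without and -0.15 with beads.

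**Figure D2:**
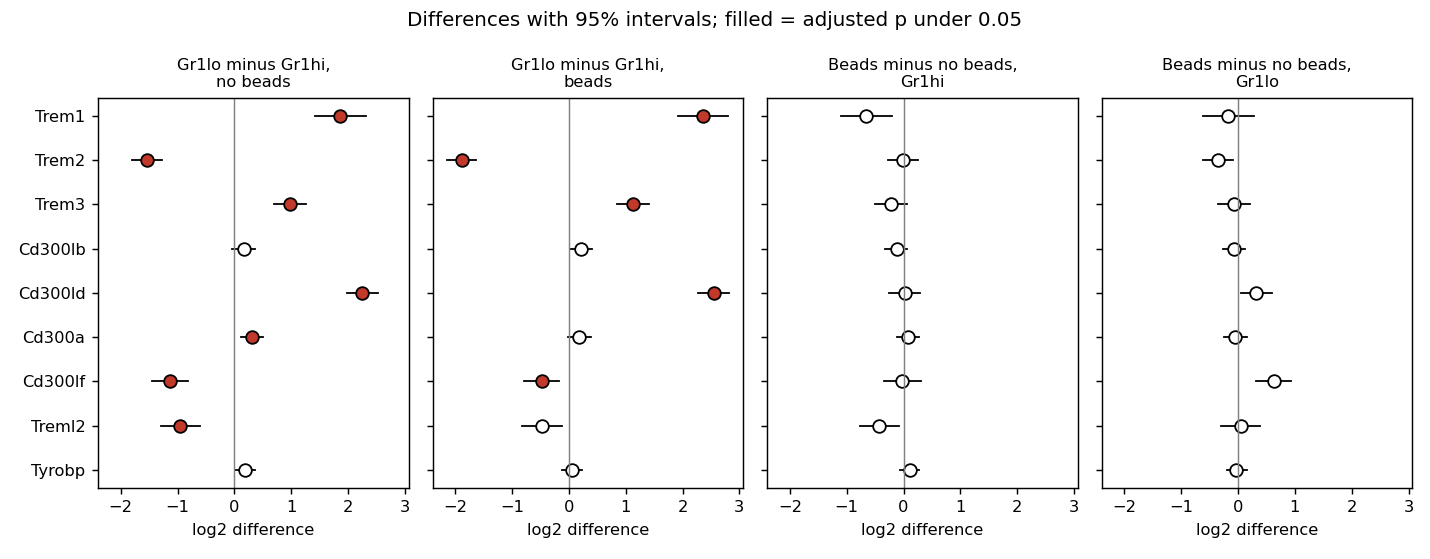
Log2 differences of the 9 genes (points) with 95% intervals (lines) in 4 comparisons of 2 against 2 arrays; filled points have an adjusted p under 0.05 in limma. The subset comparisons have 7 and 5 filled points in both directions, and the bead comparisons have 0.

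Is the uptake of beads accompanied by other levels of these receptors? In neither subset was any of the 9 genes called between cells with and without beads. In Gr1hi cells limma called 0 of 9, against 0.247% of all genes, and 2 of 9 had an unadjusted p under 0.05, against 9.93% of all genes. In Gr1lo cells it called 0 of 9, against 0.225% of all genes, and 3 of 9 had an unadjusted p under 0.05, against 13.2%. Arrays with and without beads did not overlap in 5 of 9 genes in Gr1hi cells, against 44.2% of all genes, and in 4 of 9 in Gr1lo cells, against 42.7%.

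In Gr1hi cells the largest difference was that of Trem1, at 7.92 and 7.25 with beads and 8.33 and 8.15 without. Its arrays with beads were both lower, but they also spread more than those of any other group (SD 0.47). The log2 difference was -0.66 ± 0.19 (95% interval -1.10 to -0.21; limma adjusted p = 0.310), and it ranged from -0.99 to -0.32 with each array left out in turn. Neutrophil markers were lower with beads as well, with 2 of 9 called and a median difference of -0.69, against 0.247% of all genes called. Of 5 basophil and mast cell markers 3 were called lower (median -0.8), and all 5 were below background on every array. The part of either list in the Trem1 value and in that of Treml2 was not tested. Treml2 differed by -0.43 ± 0.15 (-0.77 to -0.08; adjusted p = 0.401). Trem2 differed by -0.01 ± 0.12 and a 95% interval of -0.27 to 0.26. The intervals of Tyrobp (-0.07 to 0.28), Cd300a (-0.12 to 0.28), Cd300lb (-0.32 to 0.07), Cd300ld (-0.25 to 0.29), Cd300lf (-0.34 to 0.30) and Trem3 (-0.50 to 0.06) all include 0.

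In Gr1lo cells the largest difference was that of Cd300lf, at 9.89 and 10.04 with beads and 9.25 and 9.43 without. Both arrays with beads were above both without. The log2 difference was 0.63 ± 0.14 (1.54-fold; 95% interval 0.31 to 0.94; limma adjusted p = 0.144), and it was not called in any of 15 alternatives. Trem2 went the other way, by -0.35 ± 0.12 (-0.62 to -0.09; adjusted p = 0.276), and Cd300ld differed by 0.32 ± 0.12 (0.05 to 0.59; adjusted p = 0.319). Bead-free Gr1lo cells also had more of the classical monocyte markers, with a mean of 10.57 to 10.90 over the 4 measured, against 8.62 to 8.77 with beads, and 3 of 4 were called lower with beads. The second Trem2 probe set gave 0.27 here, and both averaged gave -0.04. The part of the classical markers in the Cd300lf and Trem2 values was not tested. The intervals of Tyrobp (-0.20 to 0.15), Cd300a (-0.25 to 0.15), Cd300lb (-0.27 to 0.13), Trem1 (-0.61 to 0.28), Trem3 (-0.35 to 0.21) and Treml2 (-0.30 to 0.39) include 0.

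The bead difference, with minus without beads, was also compared between the subsets. This contrast was called for 0 of 9 genes, against 0.044% of all genes. For 1 of 9 the unadjusted p was under 0.05 in limma, against 7.84% of all genes. That gene was Cd300lf, whose bead difference was larger in Gr1lo than in Gr1hi cells by 0.65 ± 0.20 (95% interval 0.20 to 1.10; adjusted p = 0.558). The same value is the narrowing of its subset gap with beads. Trem1 differed by 0.49 ± 0.27 (adjusted p = 0.704), Treml2 by 0.47 ± 0.21 (adjusted p = 0.635) and Trem2 by -0.35 ± 0.16 (adjusted p = 0.655).

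How far do the other probe sets of a gene give the same picture? Those of Trem1, Trem2, Cd300a and Treml2 can be set side by side. The second Trem1 probe set was above background in Gr1lo cells only. It gave subset differences of 1.64 without and 1.79 with beads, in the same direction as the main 1.86 and 2.35. Its bead differences were -0.52 in Gr1hi and -0.37 in Gr1lo cells, against -0.66 and -0.17 for the probe set used. The second Cd300a probe set, at a lower level, gave 0.58 and 0.53, larger than the main 0.31 and 0.18. With both averaged, the Cd300a difference with beads was 0.36 and was called (limma adjusted p = 0.00798), the only alternative of 15 in which it was. The second Trem2 probe set was below background in every group and gave -0.26 and -0.16, so the Trem2 result rests on 1 probe set. Averaging the Trem2 probe sets left both subset differences called at -0.90 and -1.02. For beads in Gr1lo cells the second Trem2 probe set gave 0.27, against -0.35 for the one used. With both averaged, that bead difference was -0.04. The second Treml2 probe set averaged 8.23 in bead-free Gr1hi cells, 7.40 with beads, 6.30 in Gr1lo cells without beads and 5.54 with beads. Its subset differences, -1.93 and -1.86, were larger than those of the probe set used, and its bead differences were -0.84 in Gr1hi and -0.77 in Gr1lo cells. The other Treml2 probe sets were below background throughout. Averaged over its 4 probe sets, Treml2 was called with beads too (-0.67; adjusted p = 7.94e-04).

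**Figure D3:**
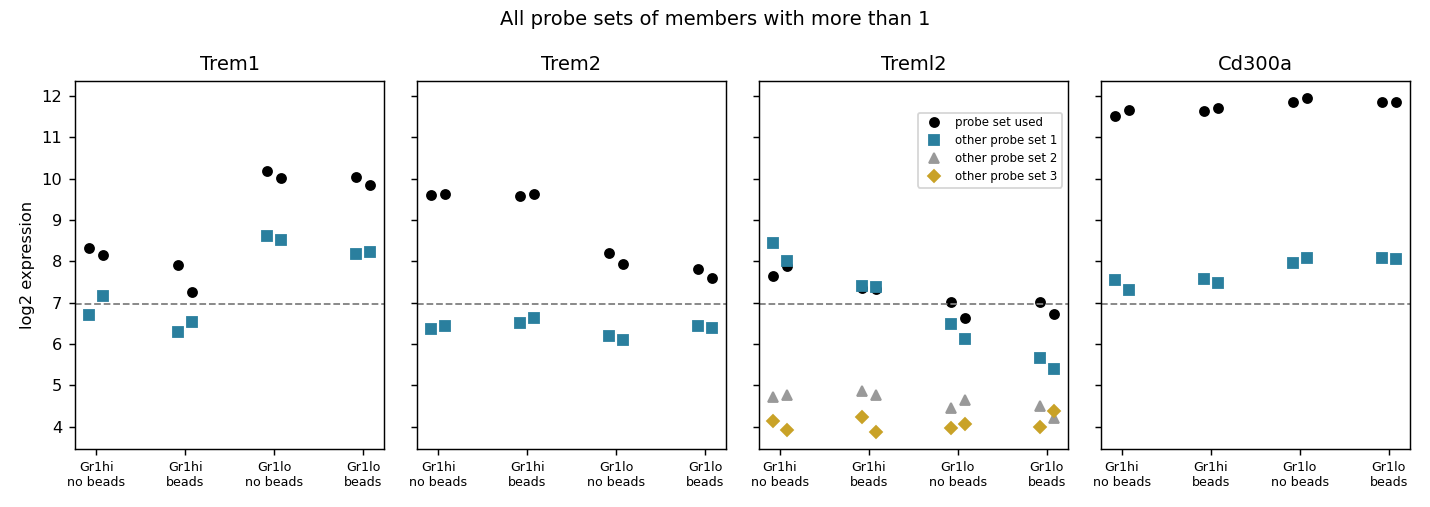
Values (log2 expression) on each of the 8 arrays for all probe sets of the 4 genes with more than 1; black points are the probe set used and the dashed line is the background level. Both Trem1 probe sets are higher in Gr1lo cells, the second Trem2 probe set stays below background, and the upper pair of Treml2 probe sets is lower in Gr1lo cells.

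Of the 12 other family genes listed, 4 were measured. Treml4, which also pairs with Tyrobp and is a marker of nonclassical monocytes, was at 8.40 in Gr1hi and 12.99 in Gr1lo cells without beads, a difference of 4.59 ± 0.09 (limma adjusted p = 6.48e-08), and differed by 3.98 ± 0.09 with beads (adjusted p = 1.83e-07). It was the only gene of these lists called with beads in Gr1hi cells, at 0.67 ± 0.09 (adjusted p = 0.0347). Cd300c2, an activating CD300 receptor next to Cd300ld in the RefSeq order, was higher in Gr1lo cells by 1.87 ± 0.10 without beads (adjusted p = 1.17e-05) and 1.51 ± 0.10 with beads (adjusted p = 2.75e-05). Cd300lg, known from endothelium, was near or below background and lower in Gr1lo cells, at -0.69 ± 0.20 and -1.38 ± 0.20. Treml1, a platelet receptor, differed by -0.40 ± 0.13 without beads (adjusted p = 0.0524) and -0.14 ± 0.13 with beads (adjusted p = 0.481). Without beads 2 of the 4 were called higher and 1 lower in Gr1lo cells, against 10.0% and 13.6% of all genes. The same counts hold with beads, against 11.8% and 14.6%.

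The counts of the pathway lists that follow stand beside the whole array, where 10.0% of genes were called higher and 13.6% lower in Gr1lo cells without beads (median -0.07), and 11.8% higher and 14.6% lower with beads (median -0.03). Of 7 other measured receptors that pair with Tyrobp, 3 were called higher and 1 lower in Gr1lo cells without beads, with a median of 0.06, and 3 higher and 1 lower with beads, with a median of 0.01. Pilrb1, the activating partner of the paired immunoglobulin-like type 2 receptors, was higher by 2.06 ± 0.09 without and 2.03 ± 0.09 with beads (limma adjusted p = 3.94e-06 and 3.57e-06). Sirpb1a, an activating signal-regulatory protein, was higher by 0.60 ± 0.14 and 0.64 ± 0.14. Clec5a, a myeloid C-type lectin, was lower by log2 differences of -2.69 ± 0.19 without beads and -3.52 ± 0.19 with beads (adjusted p = 3.80e-05 and 7.54e-06), and was below background in Gr1lo cells. The third call was Klrk1, which encodes the receptor NKG2D, without beads (0.55 ± 0.17; adjusted p = 0.0481), and the natural killer receptor Klra8 with beads (0.32 ± 0.10; adjusted p = 0.0498), which was below background in all groups.

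Among the adaptors and proximal activating signalling genes, 7 of 17 measured were called higher and 1 lower in Gr1lo cells without beads (median 0.23, against -0.07 for all genes, of which 10.0% were higher and 13.6% lower). With beads 7 were higher and 2 lower (median 0.30, against -0.03 for all genes, of which 11.8% were higher and 14.6% lower). The Src family kinase gene Fyn differed most, by 2.12 ± 0.09 without and 2.05 ± 0.09 with beads (limma adjusted p = 2.53e-06 and 2.83e-06). Fgr, of the same family, was higher by 0.86 ± 0.12 and 1.18 ± 0.12. The scaffold Lcp2 (0.66 ± 0.09 and 0.75 ± 0.09), the exchange factor Vav3 (0.75 ± 0.13 and 0.54 ± 0.13) and the adaptor Hcst (0.46 ± 0.09 and 0.50 ± 0.09) were higher in both bead states. Malt1 was called higher without beads and Pik3cd higher and Grb2 lower with beads. The membrane adaptor Lat2 was lower, by log2 differences of -0.54 ± 0.12 and -1.08 ± 0.12. Syk itself differed by 0.34 ± 0.19 and 0.40 ± 0.19 and was not called (adjusted p = 0.253 and 0.173).

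On the inhibitory side, 5 of 9 phosphatase and negative adaptor genes were called higher and 1 lower in Gr1lo cells, both without beads (median 0.47, against -0.07 for all genes) and with beads (median 0.66, against -0.03). Of all genes, 10.0% were called higher and 13.6% lower without beads, and 11.8% and 14.6% with beads. Ptpn11 was higher by 0.89 ± 0.11 and 0.97 ± 0.11, and Ptpn6 by 0.47 ± 0.12 and 0.66 ± 0.12. The docking proteins Dok1 (0.94 ± 0.09 and 0.95 ± 0.09) and Dok3 (0.54 ± 0.10 and 1.04 ± 0.10) and the ubiquitin ligase Cblb (1.82 ± 0.45 and 1.85 ± 0.45) were also higher. Ubash3b was lower, at -0.58 ± 0.16 in both.

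Of 6 measured ligands and sheddases, 2 were called higher and 2 lower in Gr1lo cells in each bead state, against 23.6% of all genes called in either direction without beads and 26.5% with beads. The median was -0.08 without beads (-0.07 for all genes) and -0.14 with beads (-0.03 for all genes). Apoe, a lipoprotein that Trem2 binds, was higher by 2.04 ± 0.14 without beads (limma adjusted p = 3.05e-05) and 1.43 ± 0.14 with beads (adjusted p = 1.40e-04), where Trem2 was lower. Pglyrp1, a peptidoglycan recognition protein reported as a Trem1 ligand, was higher by 2.59 ± 0.28 and 2.48 ± 0.28, and was below background in Gr1hi cells. The galectin Lgals3 (-0.51 ± 0.08 and -0.87 ± 0.08) and the sheddase Adam17 (-0.49 ± 0.11 and -0.83 ± 0.11) were lower in Gr1lo cells. In the bead comparisons 0 genes of these 4 lists were called in limma in either subset.

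**Figure D4:**
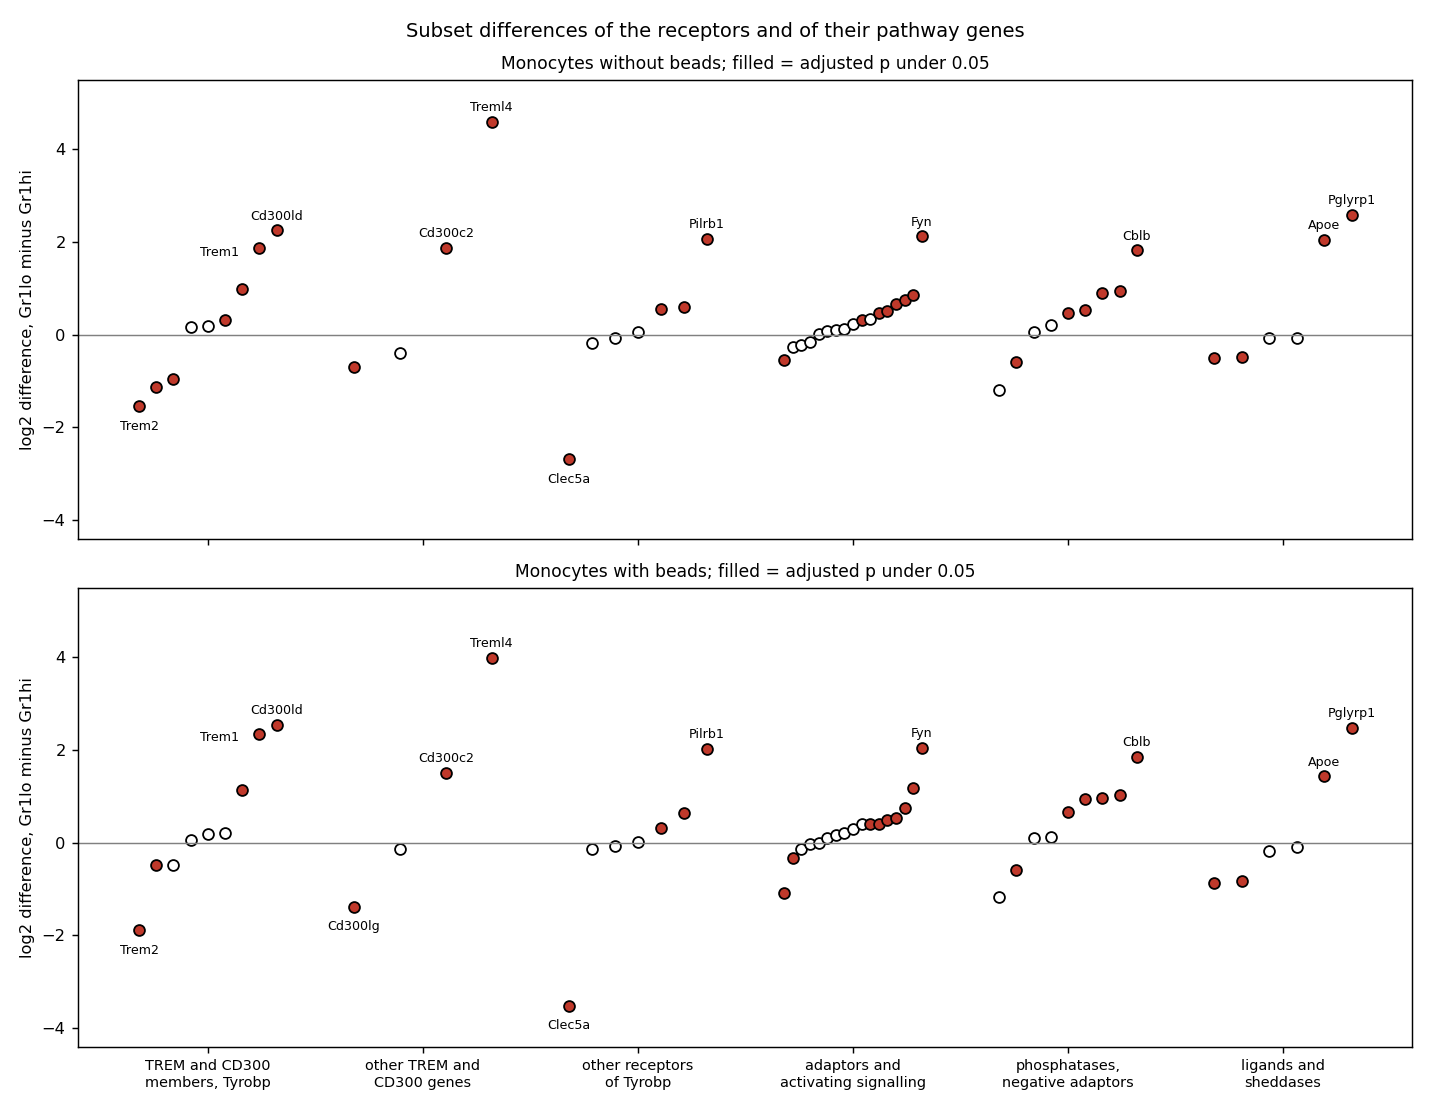
Log2 differences between Gr1lo and Gr1hi cells without beads (top) and with beads (bottom) for the 9 genes and 5 pathway lists, 1 point a gene in ascending order within its list; filled points have an adjusted p under 0.05 in limma and genes beyond 1.3 log2 units are named. Each list has filled points above and below 0.

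Which other genes follow these receptors over the arrays? For the 5 genes whose group means spanned at least 1 log2 unit, the 3 genes with the highest Pearson r over the 8 arrays were taken among 9024 genes above background. These coefficients come from 8 arrays in 2 subsets and mostly restate the subset difference. Cd300ld was followed by L1cam, Filip1l and Pik3ap1 (r = 0.999 each), and Trem2 by Mpc1 (0.999), Aprt (0.999) and Itga1 (0.998). Trem1 was followed by Cox17 (0.997), Phf1 (0.997) and Sertad2 (0.994), and Trem3 by Zfyve27 (0.996), Gzf1 (0.995) and Dedd2 (0.995). For Cd300lf the closest were Mkrn2 (0.976), Adh7 (0.968) and Oxnad1 (0.961), whose group means spanned 0.29, 0.19 and 0.31 log2 units, against 1.13 for Cd300lf.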

How the data were processed

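The data, as the authors deposited them, are log2 signals of 45101 probe sets on 8 Affymetrix GeneChip arrays of the mouse genome. Per the submitters' processing notes and the series text, arrays were read with oligo, normalised by RMA and compared with limma; no source used here gives versions or the chip definition. RMA makes arrays comparable by quantiles, so a shift shared by most genes is not visible. Values were used as deposited.

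Probe sets with exactly 1 gene symbol (34945) were kept, and 932 with several, 9160 with none listed and 64 controls were left out. Per gene the probe set with the highest mean stood for it. Background was the 95th percentile of the means of 115 genes chosen by symbol as not expected in monocytes. A linear model with 4 group means was fitted to all 8 arrays and 18193 genes with limma 3.58.1 in R 4.3.3. Its eBayes step had 4.48 prior and 4 residual degrees of freedom, and p-values were adjusted by Benjamini-Hochberg over the whole table; the fit was tested on simulated data. Tests are two-sided, ± after a difference is the moderated SE, and intervals are at 95%. Named genes are the members, up to 5 called genes per pathway list and comparison by smallest p, all other family genes measured, and the 3 closest genes by correlation; Fcer1g, Syk, Pik3cd, Grb2, Ubash3b, C1qb, Cd79b and the other markers named were chosen after their values were seen. Gene list counts were not tested. The members, lists and comparisons were chosen with earlier results of these data known. Alternatives were a background filter, probe set averaging, the compared arrays alone, trend and robust eBayes, median centring, cyclic loess, a replicate block and leaving out each array. Same-numbered arrays deviated together at r = 0.36 between the Gr1hi groups and 0.27 between the Gr1lo groups, but at -0.02 to 0.09 across subsets. Tables and figures were made in Python 3.11.15 with pandas 2.3.3 and matplotlib 3.10.9.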

Additional observations from a re-analysis of the deposited data

How the results depend on the processing

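Of 45 differences (9 genes in 5 comparisons), 12 were called. Over 15 alternative settings, 616 of 666 values kept direction and side of the threshold, 12 lost a call, 15 gained one and 23 changed sign, all 23 of them differences that were not called. Trem1, Trem2, Trem3 and Cd300ld in both subset comparisons, and Cd300lf and Treml2 without beads, were called in all 15. The counts of called genes were 6 to 8 (7 as reported) without beads and 4 to 7 (5 as reported) with beads between subsets, and 0 throughout for the bead comparisons and their difference. With the replicate block, a single term shared by all groups, the counts were the same, 7, 5 and 0. The numbers did not pair the arrays across subsets, and a pairing within each subset was not fitted. Sign changed for Trem2 with beads in Gr1hi cells with probe sets averaged (0.08), after centring (0.00) and after cyclic loess (0.03). In cyclic loess it also changed for Cd300lf in Gr1hi (0.02) and for Trem3 (0.00), Cd300lb (0.01), Cd300a (0.03) and Tyrobp (0.07) with beads in Gr1lo cells, and with probe sets averaged for Treml2 in Gr1lo cells (-0.19). With 1 array left out the bead differences ranged in Gr1hi cells from -0.04 to 0.03 for Trem2, -0.06 to 0.11 for Cd300ld and -0.23 to 0.18 for Cd300lf, and in Gr1lo cells from -0.24 to 0.09 for Trem3, -0.14 to 0.00 for Cd300lb, -0.11 to 0.00 for Cd300a and -0.14 to 0.23 for Treml2. The contrast of bead differences between the subsets ranged from -0.02 to 0.31 for Trem3 and -0.01 to 0.12 for Cd300lb. In these fits the lone array of a group is assumed to vary like the other groups. The cause of these shifts was not tested. The number of arrays, 2 a group, limits what can be called.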
